A study of Homo sapiens with 8 samples.

Results

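U3, U8 and U13 are small nucleolar RNAs (snoRNAs) that take part in the processing of the ribosomal RNA precursor. They were followed here in exosomes and in the cells that release them. The members were the table entries named SNORD118 (U8), SNORD13 (U13) or SNORD3 followed by a letter (U3 and its gene copies): 6 of 2709 features, 4 of them copies of U3. All 6 had reads and passed the filter on low counts. The study sequenced small RNA from exosomes, vesicles of MEC-1 cells collected from culture supernatant (n = 5), and from the MEC-1 cells themselves (n = 3). MEC-1 is an established line of leukaemic B cells, grown from a chronic lymphocytic leukaemia. Both groups came from bioreactor cultures with no added treatment named in the labels. Exosomes were pelleted at 100000 g after debris was spun out and were separated from protein aggregates on a 20% Optiprep cushion. The serum in the medium was cleared of its own vesicles, except in the upper medium compartment. Cells were taken alongside 3 of the exosome preparations, per the design text, which does not say which. Whether the replicates of a group are separate cultures is not said, and the p-values then reflect spread between libraries, which may be technical.

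Most snoRNAs of the C/D box class guide methylation of ribosomal RNA and are cut out of introns of other genes. U3, U8 and U13 are instead made from genes of their own by RNA polymerase II and carry a methylated cap. U3 pairs with the ribosomal RNA precursor and is needed for the cleavages that release the RNA of the small ribosomal subunit. U8 is needed for maturation of the RNAs of the large subunit, as worked out in frog oocytes. U13 directs acetylation of the small-subunit RNA by the enzyme NAT10. All of them work in the nucleolus.

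The U3 sequence is shown because the results turn on its copies, which differ by single bases. It is that of the 217-nt SNORD3A transcript of GENCODE release 29 (GRCh38 build), from the plus strand of chromosome 17, with the C box letters TGATGA and the last CTGA, the D box letters, in capitals.
SNORD3A: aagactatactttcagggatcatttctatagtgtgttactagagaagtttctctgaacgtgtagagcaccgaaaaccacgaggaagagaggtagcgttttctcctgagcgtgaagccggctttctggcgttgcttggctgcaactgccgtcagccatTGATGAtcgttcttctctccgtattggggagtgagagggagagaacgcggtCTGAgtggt
TGATGA began at base 158 of U3 and CTGA at base 209, with 5 bases after it. U8, of 134 nt, held TGATGA at base 55 and its last CTGA at base 130, 1 base before its end. Only the RNA strand was searched, and the matches did not overlap. TGATGA was present in 77.1% and CTGA in 98.2% of 284 GENCODE transcripts of 60 to 300 nt named SNORD. The stretch of U8 around its C box, on the minus strand of chromosome 17, shows the same letters in another surrounding.
SNORD118: cagattagaacaTGATGAttggagatgcat

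The U3 copies lie in 2 pairs on chromosome 17 (coordinates here and below are those of the deposited tables, GRCh37). SNORD3B-1 (18965225 to 18965807, plus strand) and SNORD3B-2 (18966762 to 18967449, minus strand) are 954 bp apart. SNORD3A (19091329 to 19092027, plus strand) and SNORD3C (19092978 to 19093558, minus strand) are 950 bp apart. Bases 72 to 114 of the 217-nt RNA hold both positions at which the copies differ, in capitals.
SNORD3A: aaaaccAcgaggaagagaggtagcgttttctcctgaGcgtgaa
SNORD3B-1: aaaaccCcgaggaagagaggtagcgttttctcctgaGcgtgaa
SNORD3C: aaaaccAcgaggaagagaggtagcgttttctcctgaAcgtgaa
Counted from 1 at the 5′ end, with the base of SNORD3A first, SNORD3B-1 and SNORD3B-2 each differ from SNORD3A by A78C and SNORD3C by G108A. The counted features run past the RNA: SNORD3A spans 699 nt and SNORD3C 581 nt, and over those 581 nt G108A is the single difference between them.

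SNORD118 (chromosome 17, 8076772 to 8076905, minus strand, 134 nt) lies within an untranslated region of TMEM107 on the same strand in GENCODE, so reads of that messenger RNA cannot be told apart from U8.

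SNORD13 (chromosome 8, 33370993 to 33371096, plus strand, 104 nt) lies opposite an untranslated exon of TTI2. Whether counting used strand is not given in the sources used here, so without it reads of TTI2 and of U13 would not be separable.

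Total counts were 23353820 to 32436286 per exosome library, against 25675636 to 57323598 per cell library. Scaling factors from TMM, a trimmed mean of log ratios between libraries, ran from 0.524 to 1.46 in exosome and from 0.552 to 1.42 in cell libraries. RNA28S5 took 23.3% to 51.4% of exosome counts. MIR155HG, the precursor gene of a B-cell miRNA, was abundant in both groups (8675 ± 2510 in exosomes, 10080 ± 1818 in cells; SD, n = 5 and 3), as CPM, the counts of a feature per 1e+06 counts after TMM scaling. None of the 4 tested B-cell and haematopoietic miRNA genes was called (0 at an unadjusted p under 0.05 in edgeR), MIR150 with 24.9 ± 20.9 against 8.33 ± 8.43 CPM included. Of all 1178 tested features, 43.0% were called in either direction, at an adjusted p under 0.05. miRNAs of other tissues summed to 113 to 270 CPM in exosome and 58.8 to 90.7 CPM in cell libraries. Of 7 tested, 4 were higher in exosomes (57.1%, against 20.7% of all tested features). MIR122 and MIR126 were among them (log2 5.47 and 2.90, edgeR adjusted p = 0.000193 and 0.00538), and MIR486 (0.86) and MIR9-1 (-1.27) were not called. Whether these reads are foreign RNA, and what part such RNA has in the results below, was not tested.

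U8 and U13 were lower in exosomes than in cells, and U3 showed no difference that passed the test. U8 fell to 38.5 ± 10.6 CPM in exosomes, against 165 ± 68.4 CPM in cells (SD, n = 5 and 3), and U13 to 58.6 ± 29.3 CPM, against 210.5 ± 184 CPM. The most abundant U3 copy, SNORD3A, was at 115 ± 51.7 CPM in exosomes and 100.2 ± 57.5 CPM in cells. In bulk libraries, fewer vesicles with an RNA and less of it per vesicle cannot be told apart. Of the 6 features, 2 were called lower by edgeR's quasi-likelihood test at an adjusted p under 0.05, where 22.3% of all 1178 tested features were called lower and 43.0% were called in either direction. None was called higher (0 at an unadjusted p under 0.05, and 0 with DESeq2 or limma-voom), against 20.7% of all features. Both calls were lost without cell 3, and the all-feature median then stood at a log2 of 0.38, against -0.09 with every library.

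SNORD118, U8, was counted with 1508, 1654, 1912, 728 and 515 reads in exosomes 1 to 5 and with 4169, 4155 and 12605 reads in cells 1 to 3. After scaling these were 46.3, 47.2, 41.9, 21.4 and 36.0 CPM in exosomes, against 114, 138 and 243 CPM in cells. Every exosome library was below every cell library, as was so for 20.1% of all tested features, and 41.7% of features had groups without overlap in either direction. The log2 fold change, exosome over cell, was -2.10 (SE 0.50, 95% interval -3.16 to -1.03, adjusted p = 0.00339), or 4.29-fold lower. Without cell 3 it was -1.37, with an adjusted p of 0.0503 in edgeR's test. Scaled by total counts alone, the libraries held 18.9 to 59.0 CPM in exosomes and 76.3 to 220 CPM in cells and still did not overlap.

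SNORD13, U13, had 1868, 2588, 4527, 883 and 527 reads in exosomes and 2607, 4244 and 21735 reads in cells. These came to 57.3, 73.8, 99.2, 25.9 and 36.8 CPM in exosomes and to 71.5, 141 and 419 CPM in cells. Exosomes 2 and 3 lay above cell 1, so the groups overlapped, and cell 3 stood 5.86-fold above cell 1. The log2 fold change was -1.84 (SE 0.62, 95% interval -3.15 to -0.54, edgeR adjusted p = 0.0235), or 3.59-fold lower. It was -0.49 without cell 3 (adjusted p = 0.551), -1.69 without exosome 1 (0.0684) and -1.36 without exosome 4 (0.107), so the call rested on single libraries.

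SNORD3A was counted with 4062, 2260, 5162, 2594 and 2802 reads in exosomes and with 1905, 2537 and 8504 reads in cells. Its levels were 125, 64.5, 113, 76.1 and 196 CPM in exosomes and 52.3, 84.4 and 164 CPM in cells. The ranges of the groups overlapped over most of their length, with exosome 5 highest and cell 1 lowest. The log2 fold change was 0.20 (SE 0.56, 95% interval -0.99 to 1.38, edgeR adjusted p = 0.803), and -0.23 without cell 1, -0.06 without exosome 5 and 1.11 without cell 3. SNORD3C had a mean of 75.5 ± 37.8 CPM in exosome libraries against 60.3 ± 20.8 CPM in cell libraries (log2 0.32, adjusted p = 0.672; -0.02 without cell 1). SNORD3B-1 was at 37.2 ± 12.9 and 72.1 ± 60.4 CPM (log2 -0.95, adjusted p = 0.196), and SNORD3B-2 had the same values, so the 4 copies are not independent. Without cell 3 the value of SNORD3B-1 was 0.32.

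**Figure D1:**
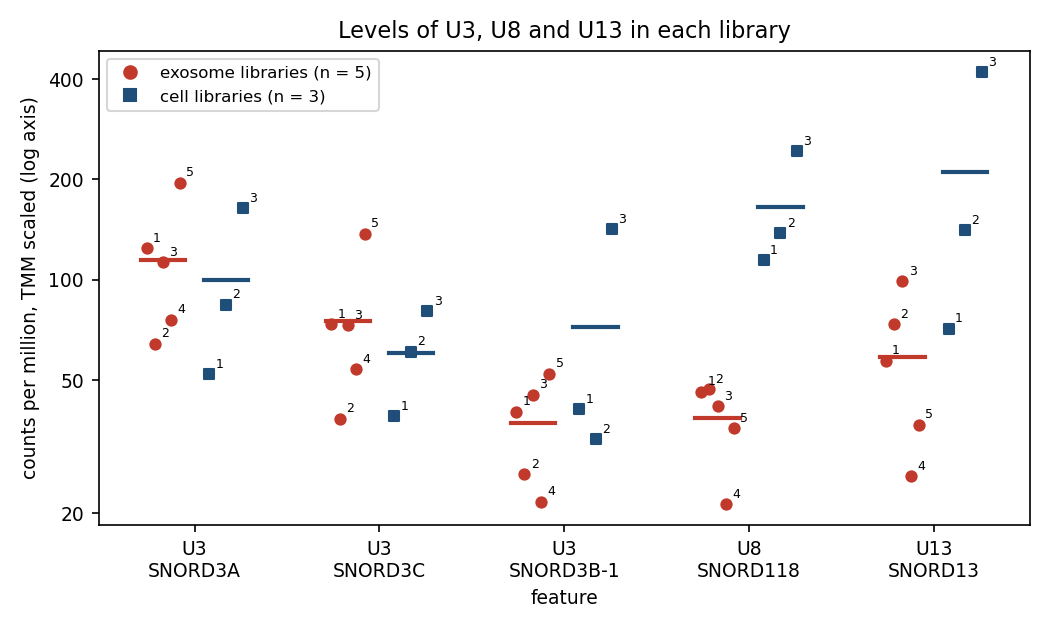
Level of each feature in CPM after TMM scaling (log axis) in 5 exosome libraries (circles) and 3 cell libraries (squares), numbered by replicate, with group means as bars. SNORD118 is the feature whose exosome libraries, at most 47.2 CPM, all lie below the cell libraries, and cell 3 is the highest cell library for each feature.

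With its copies summed, U3 had summed counts of 9093, 5445, 12645, 5916 and 6272 in exosomes and 6322, 6382 and 27397 in cells. These are sums over features, and a read that matches several copies may be counted more than once in them. The edgeR log2 fold change of the sum was 0.11 (SE 0.57, 95% interval -1.09 to 1.30, adjusted p = 0.893). The sign is not fixed by these data: on the scaling factors of the table with separate copies the value was -0.20 (95% interval -1.37 to 0.97, adjusted p = 0.793), and over the single libraries left out it ran from -0.60 to 0.77. Replacing the 4 copies by their sum moved the factor of cell 2, for one, to 0.685, against 0.552 in the full table. The 217 nt of U3 exceed the 200 nt limit stated for the input RNA, while U8 and U13 fall under it. Intact and fragmented RNA cannot be told apart in these counts.

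The order of the copies was the same in all exosome libraries, with SNORD3A above SNORD3C and SNORD3C above the SNORD3B pair. SNORD3B-1 and SNORD3B-2 had identical counts in every exosome library and differed by 1, 1 and 2 reads in cells 1 to 3. The ratio of SNORD3B-1 to SNORD3A reads was 0.323, 0.407, 0.401, 0.285 and 0.268 in exosomes, against 0.785, 0.396 and 0.865 in cells. Cells 1 and 3 lay well above all exosomes, and cell 2 lay among them. SNORD3C to SNORD3A stood at 0.592, 0.596, 0.648, 0.711 and 0.703 in exosomes and at 0.749, 0.723 and 0.493 in cells, with cell 3 lowest. SNORD3A exceeded SNORD3B-1 by 1341 to 3093 reads in exosome libraries and by 410 to 1532 reads in cell libraries. These ratios are descriptions without a test. How reads that match several copies were counted is not given in the sources used here, and the files hold no read positions, so reads over base 78 or 108 or beyond the RNA cannot be counted.

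**Figure D2:**
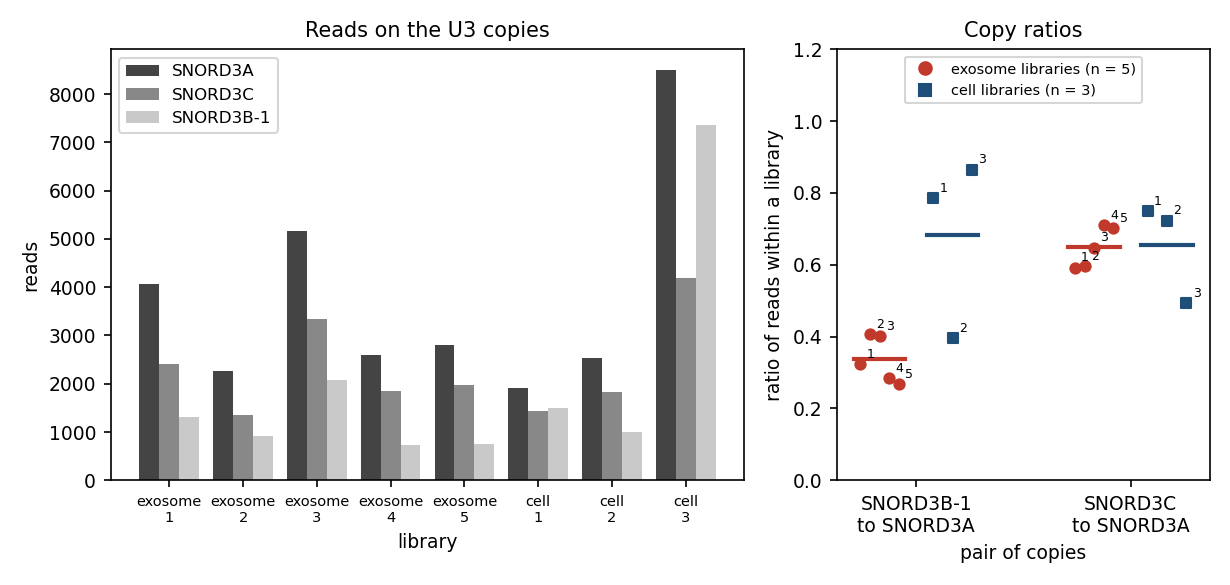
Left, reads on SNORD3A, SNORD3C and SNORD3B-1 (bars) in each library. Right, the ratio of SNORD3B-1 or SNORD3C to SNORD3A reads within a library, with group means as lines; cells 1 and 3 have SNORD3B-1 ratios of 0.785 and 0.865, while cell 2 at 0.396 lies among the exosome libraries.

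Ratios between RNAs of the same library need no scaling factor. The ratio of U8 to the summed U3 counts was 0.166, 0.304, 0.151, 0.123 and 0.0821 in exosomes, against 0.659, 0.651 and 0.46 in cells. All exosomes lay below all cells, and the log2 ratio differed by -1.95 (exact permutation test, two-sided, p = 0.0357, the smallest that 56 splits allow; adjusted p = 0.107 over 3 ratios). The ratio of U13 to U3 was 0.205, 0.475, 0.358, 0.149 and 0.084 in exosomes and 0.412, 0.665 and 0.793 in cells, a difference of -1.50 with exosome 2 above cell 1 (exact permutation p = 0.0714, adjusted p = 0.107). The ratio of U13 to U8 was 1.24, 1.56, 2.37, 1.21 and 1.02 in exosomes and 0.625, 1.02 and 1.72 in cells, overlapping widely (log2 difference 0.46, exact permutation p = 0.321, adjusted p = 0.321). Against SNORD3A alone, without a sum over copies, U8 stood at 0.371, 0.732, 0.37, 0.281 and 0.184 in exosomes and at 2.19, 1.64 and 1.48 in cells, a log2 difference of -2.32. U13 to SNORD3A stood at 0.46, 1.15, 0.877, 0.34 and 0.188 in exosomes and at 1.37, 1.67 and 2.56 in cells, a log2 difference of -1.87. Neither pair of groups overlapped then, with an adjusted p of 0.0536 for each in the exact permutation test. None of these ratios passed after adjustment. With 56 splits, none could pass unless the groups separated fully in all 3 ratios, so this outcome does not decide about U8 to U3. With the copies summed, U3 held 56.2% to 85.8% of the counts of the 3 RNAs in exosomes and 43.2% to 48.3% in cells, U8 7.04% to 17.1% and 20.4% to 31.8%, and U13 7.21% to 26.7% and 19.9% to 35.2%. With SNORD3A alone for U3, the share of U3 was 34.8% to 72.9% in exosomes and 19.8% to 23.2% in cells, so its size depends on how the copies are counted. Within exosomes, the U3 part was highest and the U8 and U13 parts were lowest in exosome 5, the library with the lowest scaling factor.

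Relative to the summed other C/D box snoRNAs, whose own part of the counts was far lower in exosomes, all 3 RNAs had higher ratios there. The other C/D box snoRNAs took 0.662% to 3.13% of exosome and 19.5% to 30.5% of cell counts. Per 1000 of their reads, summed U3 had 19.2, 8.12, 12.5, 22.2 and 34.7 reads in exosomes, against 1.26, 0.453 and 1.57 in cells, and SNORD3A alone 3.37 to 15.5 in exosomes, against 0.18 to 0.486 in cells. U8 had 3.18, 2.47, 1.88, 2.73 and 2.85 reads in exosomes, against 0.832, 0.295 and 0.721 in cells. U13 stood at 3.94, 3.86, 4.46, 3.31 and 2.91 in exosomes, against 0.52, 0.301 and 1.24 in cells. No exosome library overlapped a cell library in any of the 3 ratios. The differences in log2 ratio were 4.16 for U3, 2.20 for U8 and 2.66 for U13. These 3 ratios were added after the values had been seen and share a denominator that itself differs between the groups, so they are given as a description with no test. Their denominator is dominated by abundant intron-encoded snoRNAs such as SNORD2 (1532 ± 635 against 58000 ± 22170 CPM). Leaving out the most abundant one, the differences were 3.98, 2.03 and 2.49.

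**Figure D3:**
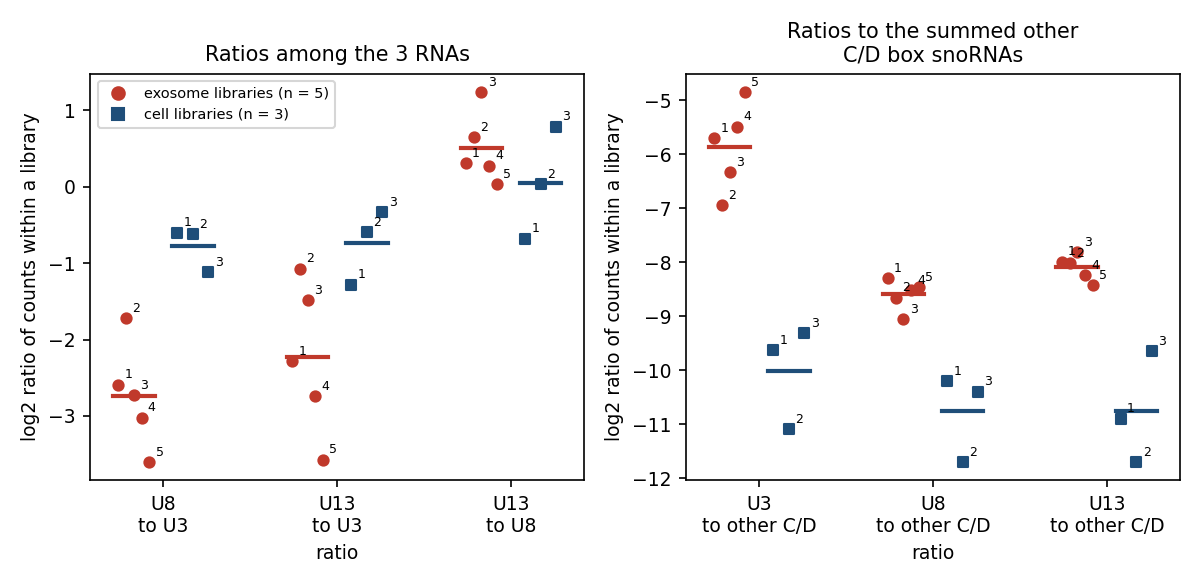
Log2 ratios of counts within each library, among U3 (copies summed), U8 and U13 (left) and of each to the summed other C/D box snoRNAs (right), for 5 exosome libraries (circles) and 3 cell libraries (squares), with group means as bars. Groups separate for U8 to U3 and for all 3 ratios on the right, where the mean differences are 4.16, 2.20 and 2.66.

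By single features, 102 of the other 140 tested C/D box snoRNAs were lower (72.9%) and 1 was higher (0.714%) in exosomes. Over all tested features, 22.3% were lower and 20.7% higher. The median log2 fold change was -2.87 for these C/D box snoRNAs and -0.09 for all features. For the 6 features of U3, U8 and U13 it was -0.95, which is the value of the SNORD3B pair with its nearly identical counts. That median describes neither U8 (-2.10) and U13 (-1.84) nor SNORD3A (0.20). Among the most abundant of the other C/D box snoRNAs were SNORD101 (log2 -6.54), SNORD2 (-5.24), SNORD63 (-4.91) and SNORD18A (-4.03). Of those 140, 88 had a lower log2 fold change than U8, 93 a lower one than U13 and 131 a lower one than SNORD3A. For U8, 55 lay below its whole 95% interval and 31 above it. For SNORD3A, 110 lay below its whole 95% interval and 1 above it. The other U3 copies differed: 132 had a lower log2 fold change than SNORD3C but 110 a lower one than SNORD3B-1. For SNORD3B-1, 87 lay below its whole 95% interval and 8 above it. Thus U8 and U13 lay inside the spread of the class, SNORD3A and SNORD3C near its upper end and the SNORD3B pair less high. Per 100 nt of feature, U8 averaged 28.8 ± 7.89 CPM in exosome libraries, against 123 ± 51.0 CPM in cell libraries, rank 69 and rank 80 of the 146 tested C/D box features. U13, at 56.4 ± 28.1 and 202 ± 177 CPM per 100 nt, had ranks 50 and 65. SNORD3A, at 16.4 ± 7.40 and 14.3 ± 8.22 CPM per 100 nt, had ranks 84 and 120, with a length that includes bases beyond the RNA.

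Other RNAs with a role in ribosomal RNA cleavage were mostly lower in exosomes. The list was U14 (needed for the small-subunit RNA in yeast), U22 and U17, E2 and E3 (studied in frog oocytes) and RMRP. Of its 11 entries, 8 were measured, while U22, RMRP and the U17 copy SNORA73A were absent. Of the 8 measured, 5 were lower (62.5%) and none higher (0 at an unadjusted p under 0.05, and 0 with DESeq2 or limma-voom). Their median log2 was -2.35. Over all tested features, 22.3% were lower and 20.7% higher. In the classes these RNAs belong to, 72.9% of the other C/D and 41.5% of the H/ACA box snoRNAs were lower. Among the U14 copies, SNORD14B (-3.38), SNORD14D (-3.17) and SNORD14E (-3.13) fell, while SNORD14A (-0.77, adjusted p = 0.274) and SNORD14C (-0.28, adjusted p = 0.699) were not called in edgeR's test. SNORD14C was at 84.4 ± 26.9 CPM in exosomes and 102 ± 44.0 CPM in cells. The E3 RNA SNORA63 fell by 2.99 and the E2 RNA SNORA62 by 1.72 on the log2 scale. The U17 copy SNORA73B was at -0.93 (adjusted p = 0.259). These 8 are also counted in the C/D or H/ACA lists.

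Of 82 H/ACA box snoRNAs, guides of pseudouridylation, 34 were lower (41.5%) and 1 higher (1.22%), with a median log2 of -1.51. Over all tested features, 22.3% were lower and 20.7% higher. SNORA64 was at -4.08 and SNORA7A at -2.75, and SNORA18 (-0.97) and SNORA34 (-0.15) were not called. Without cell 3, 15 H/ACA box snoRNAs were lower and 3 higher. In that setting 189 of all 1258 tested features were lower and 224 higher, so both sets held fewer lower calls. The other capped RNAs of RNA polymerase II, the small nuclear RNAs of the spliceosome and of histone messenger processing, had a median log2 of -0.22. This is the value of copies of the U1 RNA: RNU1-1, RNU1-2, RNU1-3 and RNU1-4 were each at -0.22. Of 27 tested, 2 were higher (7.41%, below the 20.7% of all features) and 7 lower (25.9%, near the 22.3% of all features). Apart from RNU5F-1 (-1.90), the lower calls were all entries named RNVU1, variants of U1, and RNVU1-17 (2.425) was called higher. The entries are therefore not all separate RNAs. With near-identical features counted once, 5 were lower and 2 higher. The lower count was 2 to 6 when single libraries were left out or features under 50 counts in 3 libraries were dropped. RNU11 rose by a log2 of 2.99 (409 ± 255 against 51.4 ± 21.7 CPM, adjusted p = 0.00239 in edgeR's test), and RNU5E-1 (-0.09), RNU7-1 (0.57) and RNU12 (0.98) were not called. That a list holds more or fewer calls than another was not tested.

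**Figure D4:**
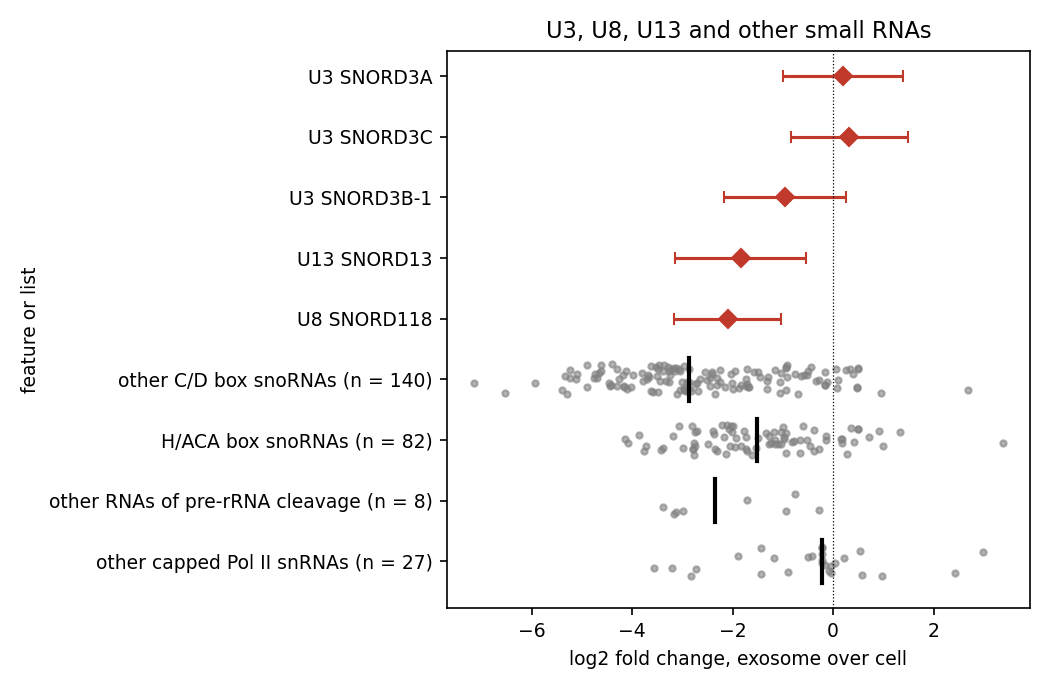
Log2 fold change, exosome over cell, of the U3, U13 and U8 features with 95% intervals (diamonds) and of single features in 4 lists of other small RNAs (grey points, with the list's median as a bar). SNORD3A at 0.20, SNORD3C at 0.32 and SNORD3B-1 at -0.95 lie to the right of the C/D box median of -2.87. U13 at -1.84 and U8 at -2.10 lie nearer to it.

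The features whose profile over the 8 libraries was most like that of each RNA were found by the root mean square difference of log2 CPM, each profile centred on its own mean, among 1177 other tested features. For SNORD3A the nearest was SNORD3C (0.19), and outside the U3 copies they were SNORA38B (0.28), MIR132 (0.34) and MIR10B (0.36). SNORA38B and MIR132 averaged only 0.869 and 1.93 CPM over the libraries, against 109 CPM for SNORD3A. Before the log, 0.5 was added to each CPM, which flattens profiles at such low levels. The log2 fold changes of SNORA38B, MIR132 and MIR10B were 0.99, 0.32 and 0.03, none of them called by edgeR. U8 was nearest to the snoRNA host gene SNHG16 (0.31), SNORA46 (0.33) and SCARNA6 (0.39), each of which was lower in exosomes (log2 -1.89, -2.16 and -2.45; edgeR adjusted p = 0.00474, 0.00419 and 0.00239). U13 was nearest to SNORD56 (0.38), SNORA18 (0.40) and SNORD82 (0.42). Their log2 fold changes were -2.32, -0.97 and -2.51, and SNORA18 was not called (edgeR adjusted p = 0.217). The profiles hold the difference between exosomes and cells, so fold changes like those of the RNA follow from the choice and are no separate result. U13 was the feature ranked 32 from U8, at 0.54, and U8 the one ranked 7 from U13. SNORD3A was at 1.23 from U8 and at 1.18 from U13, ranked 553 from U8 and 386 from U13.

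The levels of the members in cells varied more than in exosomes for most of them, and cell 3 was the highest cell library for all 6. The coefficient of variation was 27.4% in exosomes and 41.4% in cells for U8, 49.9% and 87.3% for U13, 45.1% and 57.4% for SNORD3A, and 34.8% and 83.9% for SNORD3B-1. SNORD3C differed, at 50.1% and 34.5%. The 6 features together took 0.0268% to 0.0588% of exosome counts, and 0.051%, 0.0271% and 0.108% of counts in cells 1 to 3.

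**Figure D5:**
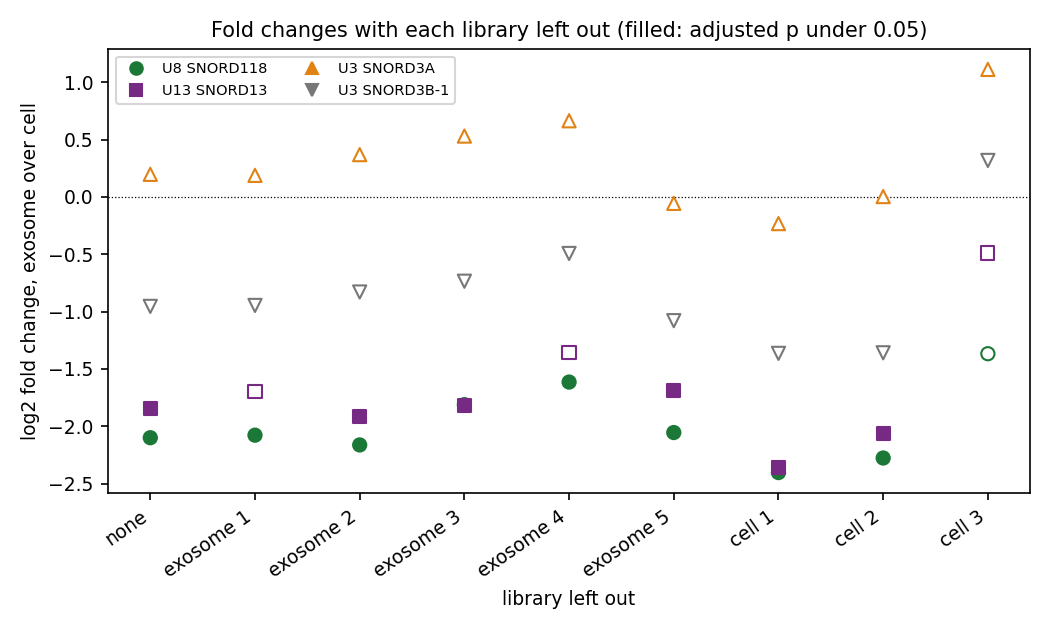
Log2 fold change, exosome over cell, of U8, U13 and 2 U3 copies with no library and with each library left out; filled marks have an edgeR adjusted p under 0.05. U8 keeps its call in all of these except without cell 3 (-1.37), and U13 is at -0.49 without cell 3.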

How the data were processed

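Each library's deposited table holds unnormalized read counts for every feature, per the file headers. Tools named in the submitters' processing notes are DESeq2 1.8.2, cutadapt 1.1, featureCounts and STAR, with GRCh37 as the build. Per the labels' protocols, small RNA (under 200 nt) was isolated on columns, and adapter-ligated libraries were made from 30 ng of it with 15 PCR cycles. No molecular identifiers are named, so reads are not independent molecules. The lowest member count was 515, and the errors and p-values include spread between libraries.

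Of 2709 features, 1178 passed edgeR's default low-count filter (minimum of 10) and entered the quasi-likelihood test of edgeR 4.0.16 (R 4.3.3; TMM factors, Benjamini-Hochberg adjustment over all tested features). The standard error was the log2 fold change over the square root of F. Ratios among the 3 RNAs within a library used an exact permutation test after 0.5 was added to each count. limma 3.58.1 and DESeq2 1.42.0 served as alternatives. Scripts were tested on simulated data.

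The members and lists were chosen with earlier results of these data known. Named genes are the members, all measured cleavage RNAs, up to 4 of the most abundant of each other list and the 3 nearest profiles.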

Additional observations from a re-analysis of the deposited data

How the results depend on the processing

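No scaling alternative or other test turned the direction of U8 or U13. U13 lost its call with total counts (-1.43, 1 member lower) and at 50 counts in 3 libraries (-1.45, 1 member lower). The all-feature median of -0.09 became 0.19 with total counts, 0.25 with upper quartile scaling and 0.29 without large rRNA features. The summed U3 value was -0.14 with RLE factors and with DESeq2, -0.02476 with total counts, -0.0246 with no filter, -0.28 without large rRNA features, -0.20 on the full table's factors. Without exosome 5 and cell 2 together, chosen after seeing the data, it was -0.70, SNORD3A -0.19, SNORD3C -0.01462 and 1 capped RNA was higher. Capped RNAs called lower were 3 with total counts and 2 at 50 counts, and 3 other C/D box snoRNAs were higher with no filter. With the replicate block (replicates 1 to 3, fewer libraries) U8 was -1.74, U13 -1.05, summed U3 -0.19, with 0 members lower (1 at an unadjusted p under 0.05), 3 capped lower and 1 higher, 17 H/ACA lower, and 162 higher and 171 lower of all features. The numbers were not shown to pair the samples: same-numbered deviations correlated at 0.0103, -0.101 and 0.265. With single libraries left out, log2 values ran from -2.40 to -1.37 (U8), -2.36 to -0.49 (U13), -0.23 to 1.11 (SNORD3A), -0.02388 to 0.95 (SNORD3C), -1.36 to 0.32 (SNORD3B-1 and SNORD3B-2) and -0.60 to 0.77 (summed U3). Lower calls ran from 0 to 2 (members), 3 to 6 (capped), 15 to 35 (H/ACA) and 189 to 261 (all features). Higher calls ran from 1 to 2 (capped), 1 to 3 (H/ACA) and 179 to 272 (all features). Ratios kept their sign, at -2.21 to -1.73 (U8 to U3), -1.79 to -1.16 (U13 to U3) and 0.09356 to 0.83 (U13 to U8). The cause of these changes was not tested.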
